A study of Mus musculus with 10 samples.

Results

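The genes described here encode receptors and receptor partners for neuropeptides: Nmur1, Calcrl, Ramp1, Ramp3, Vipr1 and Vipr2. Dimethylation of lysine 4 on histone H3 (H3K4me2) marks promoters and enhancers, and a peak of it was counted for one of these 6 genes when it was the nearest RefSeq protein-coding gene of the mm10 mouse build within 100 kb. This gave 112 of the 152121 peaks called in 8 libraries. Merged within 500 bp over the 6 airway libraries, they formed 24 of 27854 regions, numbered below within each gene in order of chromosome position. The working name of the set also mentions adrenergic receptors, but none of the 6 genes encodes one. Nearness to a gene is a position only, and no exon, intron or untranslated region was told apart.

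The question behind the comparison was which of these receptor genes carry H3K4me2 in group 2 innate lymphoid cells (ILC2s) and which in T cells. The sorted lymphocytes came from Gata3-YFP/YFP mice in which the airways were inflamed. Gata3-YFP is a fluorescent reporter of the transcription factor Gata3, and all groups share this background. ILC2s, T helper 2 (Th2) cells and cells labelled naive T gave 2 libraries each, one from bronchoalveolar lavage and one from the mediastinal lymph node. CD4+ lymphocytes of spleen and of thymus gave 1 library each, and with the Th2 and naive T libraries they make up the 6 T cell libraries. The gate behind the name naive T, the ages of the mice, and whether libraries came from separate animals are not given in the sources used here. Site, animal and technical error are thus mixed in the spread between the libraries of a cell type, and p-values measure only the spread between these samples. The labels name 2 immunoglobulin G (IgG) samples, whose own files were not used here; they carry the H3K4me2 antibody in the labels although their titles say IgG.

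Neuropeptides released by sensory, enteric and autonomic nerves act on immune cells of barrier tissues through G protein-coupled receptors. Nmur1 encodes a receptor for neuromedin U, a peptide known to activate mouse ILC2s, which signals mainly through Gq and calcium. Calcrl encodes a receptor that binds its ligands only with a partner: with Ramp1 it forms the receptor for calcitonin gene-related peptide, and with Ramp2 or Ramp3 it forms adrenomedullin receptors. Vipr1 and Vipr2 encode the VPAC receptors for vasoactive intestinal peptide and for pituitary adenylate cyclase-activating polypeptide, which raise cyclic AMP through Gs.

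The libraries held 11870820 to 24945548 tags, of which the authors' files placed 28.71% to 53.68% in peaks, lowest in both Th2 libraries. The headers set a minimum of 39.9 to 40.4 tags per 10000000 sequenced tags for a peak, although 1.05% to 3.62% of the listed peaks of a library lay slightly under it, down to 34.5. The values below are these normalized tags summed over the peaks in a region. A region with no peak in a library lay near or under that minimum or failed another criterion of the peak finder, which does not show that it lacks signal. A lower value can come from fewer cells with the mark or from less mark per cell, and these cannot be told apart. The labels were checked against marker genes. Over 9 T cell markers the summed tags were 13014.1 to 20479.7 in T cell libraries and 1667.6 and 1801.5 in ILC2 libraries, and Cd6 and Themis had no peak in either ILC2 library. Over 8 ILC2 markers they were 21905.6 and 23213.0 in ILC2 libraries against 3567.3 to 7133.4 in T cell libraries, and Kit and Arg1 had no peak in Th2 cells of either site. The markers Cd3g and Il17rb had no peak in any library. Il1rl1 held 282.1 tags in naive T cells of the lavage and 2154.4 and 1552.5 in Th2 cells. It had no peak in naive T cells of the lymph node or in spleen or thymus CD4+ cells. The 2 naive T libraries stood apart from each other: over 11669 regions the SD of their log2 difference was 0.63, against 0.39 for Th2 cells and 0.24 for ILC2s.

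The promoters of 4 of the genes are printed because the called H3K4me2 around their start sites was widest in ILC2s for Nmur1, Calcrl and Vipr2 and in naive T cells of the lymph node for Vipr1. Each runs from 250 bases before to 50 after the start site, 5′ to 3′ on the gene's strand, from RefSeq on GRCm38.p6, and capitals mark CG dinucleotides. The positions are chr1:86389312-86389611 on the minus strand for Nmur1, chr2:84425217-84425516 on the minus strand for Calcrl, chr9:121642466-121642765 on the plus strand for Vipr1 and chr12:116077476-116077775 on the plus strand for Vipr2.
Nmur1: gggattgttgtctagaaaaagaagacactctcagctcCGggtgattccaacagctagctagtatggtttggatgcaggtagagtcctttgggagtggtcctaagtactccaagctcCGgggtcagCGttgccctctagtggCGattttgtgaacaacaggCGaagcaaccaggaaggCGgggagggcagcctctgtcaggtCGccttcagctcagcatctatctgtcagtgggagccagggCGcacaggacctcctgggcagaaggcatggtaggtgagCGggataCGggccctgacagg
Calcrl: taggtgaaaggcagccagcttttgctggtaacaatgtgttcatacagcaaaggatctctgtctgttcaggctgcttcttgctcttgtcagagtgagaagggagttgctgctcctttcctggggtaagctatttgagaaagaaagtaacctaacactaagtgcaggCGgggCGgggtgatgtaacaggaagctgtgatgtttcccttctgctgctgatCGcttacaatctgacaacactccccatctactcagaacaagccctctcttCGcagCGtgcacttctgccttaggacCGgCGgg
Vipr1: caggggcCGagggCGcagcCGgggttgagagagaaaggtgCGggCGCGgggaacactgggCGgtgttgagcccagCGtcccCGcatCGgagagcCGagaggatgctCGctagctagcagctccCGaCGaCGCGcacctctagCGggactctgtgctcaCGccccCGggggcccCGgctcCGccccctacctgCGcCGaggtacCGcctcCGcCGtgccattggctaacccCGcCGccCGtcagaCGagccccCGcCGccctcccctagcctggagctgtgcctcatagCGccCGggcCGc
Vipr2: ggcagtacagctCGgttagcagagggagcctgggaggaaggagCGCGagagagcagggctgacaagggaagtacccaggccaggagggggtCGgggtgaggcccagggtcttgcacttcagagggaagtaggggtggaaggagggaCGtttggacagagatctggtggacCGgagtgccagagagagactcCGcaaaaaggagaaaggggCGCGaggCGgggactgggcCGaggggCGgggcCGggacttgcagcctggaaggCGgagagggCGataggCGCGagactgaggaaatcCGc
The Vipr1 promoter holds 35 CG dinucleotides, more than 93% of the 32851 promoter windows in the RefSeq table, where the median is 7. Vipr2 holds 18, Ramp3 15, Nmur1 10 at its outer start site and 2 at its inner one, Calcrl 7 and Ramp1 6. GC content was 73.7% for Vipr1 and 65.3% for Vipr2, against a median of 52.7% over all windows. CG content did not separate the genes with more H3K4me2 in ILC2s from the others, since Vipr2 lies above the median and Calcrl on it.

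All 7 member start sites with a promoter in that table, 2 of them for Nmur1, were searched on both strands for 7 motifs. The GATA motif GATAA, present in 25.4% of all windows, was found once, at the inner Nmur1 start site, with its first base at position -132. The ETS motif CCGGAA, present in 14.9%, was found at Ramp3 at position -249. TGACG, the first bases of a cyclic AMP response element and present in 20.8%, was found at Ramp1 at position 10 and at Vipr1 at position -13. The Runx motif TGTGGT (16.8% of windows), the AP-1 motif TGANTCA (7.81%), the ROR motif AGGTCA (16.3%) and the full cyclic AMP response element TGACGTCA (1.79%), which contains TGACG, were found in none of them. These are matches of letters in these windows only.

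The neuropeptide receptor genes carried more called H3K4me2 in ILC2s at Nmur1, Calcrl and Vipr2, and Vipr1 was highest in naive T cells of the lymph node and in spleen CD4+ cells. Of the 24 regions, 6 were called in both ILC2 libraries and in none of the 6 T cell libraries (25% of them, against 9.05% of all 27854 regions). They were 1 region of Nmur1, 3 of Calcrl and 2 of Vipr2. No region was called in all 6 T cell libraries and neither ILC2 library (0.442% of all regions), and 1 region of Calcrl was called in at least 1 T cell library and neither ILC2 library (20.8% of all). In 10 of the 24 regions both ILC2 values lay above all 6 T cell values, against 19.4% of all regions, and in none below them all, against 2.09%. These counts are descriptions with no test.

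**Figure D1:**
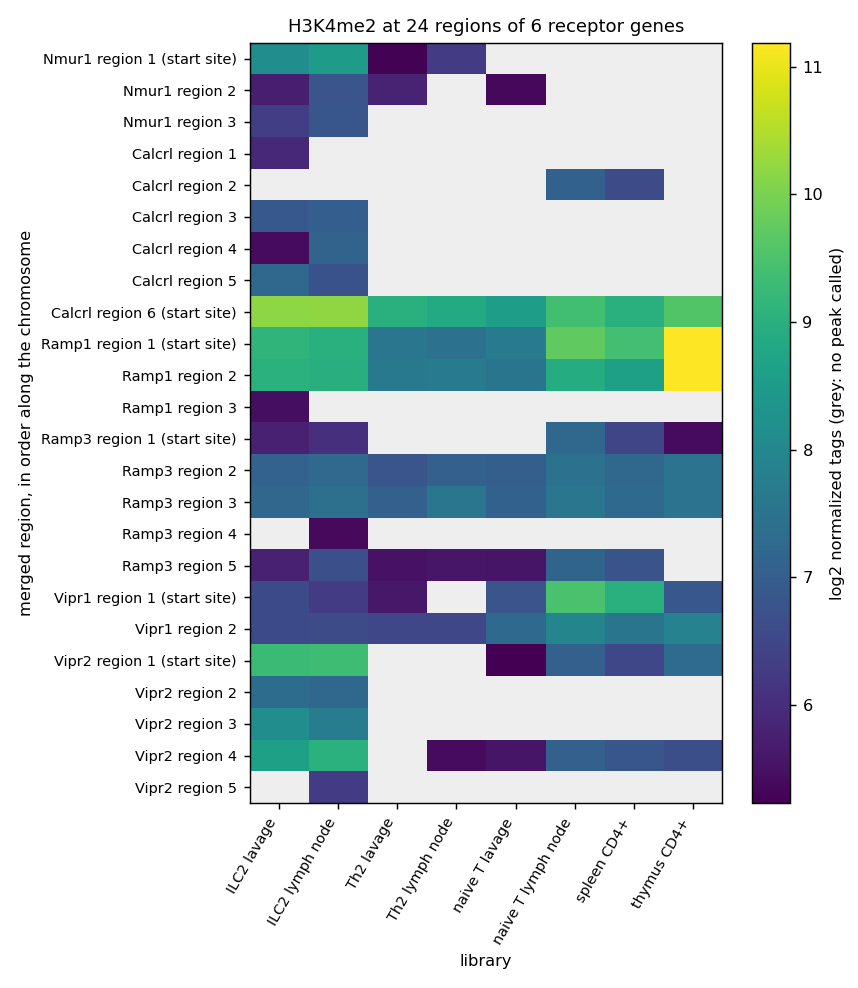
Normalized H3K4me2 tags on a log2 colour scale for 24 regions (rows, by gene) in 8 libraries (columns), with grey where no peak was called. Nmur1, Calcrl and Vipr2 have rows coloured in both ILC2 columns and in no other column. The brightest cells are the 2332.4 tags of thymus CD4+ cells at Ramp1, where 1 peak spans both rows.

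Nmur1 (gene ID 14767, chr1:86386242-86389361, minus strand), the neuromedin U receptor, had 3 regions. Region 1, chr1:86385518-86390040, covers both annotated start sites and the whole gene. It held 285.4 tags in ILC2s of the lavage and 364.9 in those of the lymph node, 38.6 and 76.7 in Th2 cells of the same sites, and no called peak in the other 4 libraries. The ILC2 values did not overlap those of Th2 cells, and the ILC2 mean of 325.2 ± 56.2 (SD, n = 2) was 4.24 times the highest T cell value. The ILC2 peaks were also wider, 3783 and 4522 bp against 1000 and 1588 bp in Th2 cells.

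Region 3 of Nmur1, chr1:86399656-86401779, lies 10295 bp before the gene. It was called only in ILC2s, with 81.4 tags for the lavage and 112.6 for the lymph node. Region 2, chr1:86392666-86395085, lies 3305 bp before the gene and held 53.3 and 112.1 tags in ILC2s, 55.5 in Th2 cells of the lavage and 41.4 in naive T cells of the lavage. Here the lavage ILC2 value was below the lavage Th2 value, so the groups overlapped. A further region, chr1:86405882-86411430, is nearer to Tex44 and is not counted among the 24; it held 163.1 and 276.4 tags in ILC2s, 87.6 in Th2 cells of the lymph node and no peak elsewhere. Summed over its 3 regions, Nmur1 had 420.1 and 589.6 tags in ILC2s, 94.1 and 76.7 in Th2 cells, and naive T cells had 41.4 and 0. Spleen and thymus CD4+ cells had no called peak at Nmur1.

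**Figure D2:**
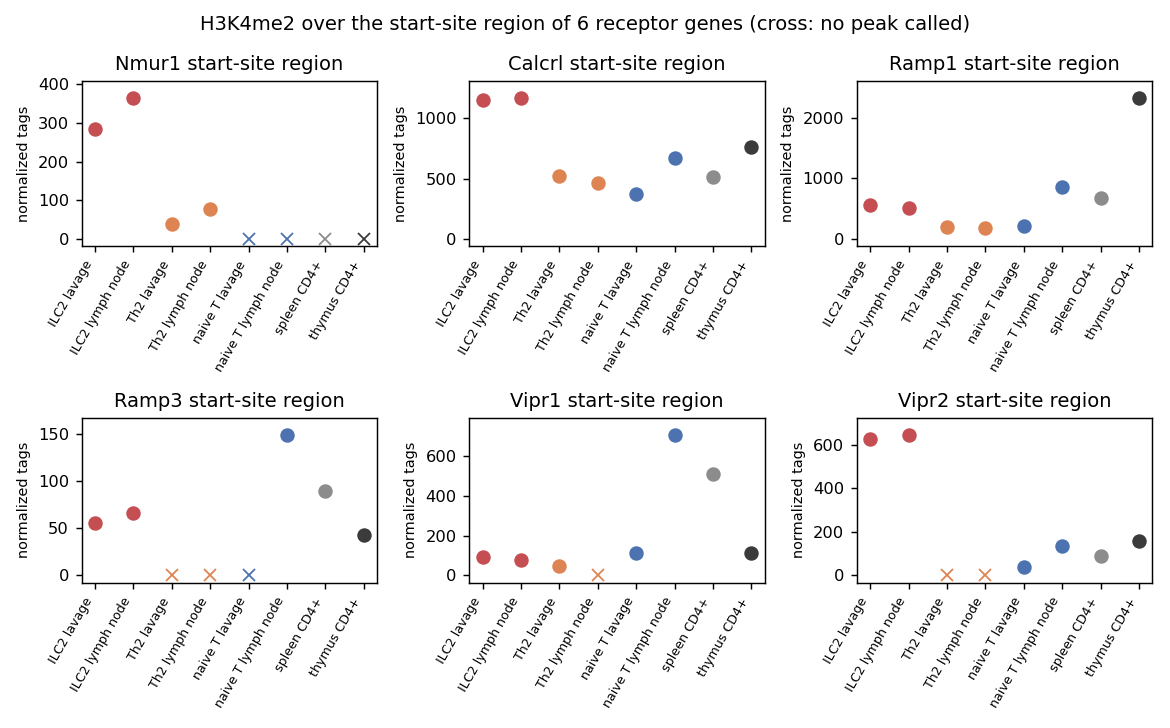
Normalized H3K4me2 tags (vertical axis, linear, scaled per gene) over the start-site region of each of 6 genes, 1 point per library and a cross where no peak was called. ILC2 points are the highest of 8 at Nmur1, Calcrl and Vipr2; naive T cells of the lymph node are highest at Ramp3 and Vipr1, and thymus CD4+ cells at Ramp1.

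Vipr2 (gene ID 22355, chr12:116077420-116148637, plus strand), which encodes VPAC2, had 5 regions. At its start site, region 1, chr12:116072632-116081631, held 629.4 tags in ILC2s of the lavage and 647.4 in those of the lymph node. Naive T cells held 37.6 and 133.7, spleen CD4+ cells 90.9 and thymus CD4+ cells 158.1, and Th2 cells of neither site had a called peak. The ILC2 mean of 638.4 ± 12.7 (SD, n = 2) was 4.04 times the highest T cell value. Most of this difference in summed tags was one of width: the ILC2 peaks spanned 8427 and 8937 bp against 1000 to 2297 bp in T cells, while tags per kb were 74.7 and 72.4 against 37.6 to 68.8.

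Inside Vipr2, region 2, chr12:116088699-116091756, was called only in ILC2s, at 162.0 tags for the lavage and 151.1 for the lymph node. Region 3, chr12:116094433-116099456, was also called only in ILC2s, at 286.6 and 217.7 tags. Both lie within the gene, with centres 12502 and 19218 bp past the start site. Region 4, chr12:116136888-116146836, lies near the end of the gene and held 392.5 and 522.1 tags in ILC2s. The T cell libraries reached 133.3 there, in naive T cells of the lymph node, and Th2 cells of the lavage had no peak. The ILC2 mean at region 4 was 3.43 times the highest T cell value. Region 5, chr12:116169219-116170736, lies 20582 bp beyond the gene and was called only in ILC2s of the lymph node, at 76.7 tags. Summed over the gene, Vipr2 reached 1542.8 ± 102.2 tags in ILC2s (SD, n = 2), against 176.1 ± 128.6 for naive T and 21.0 ± 29.8 for Th2 cells, with at most 267.0 in any T cell library.

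Vipr1 (gene ID 22354, chr9:121642716-121672954, plus strand), which encodes VPAC1 and binds the same peptides as Vipr2, showed another order. Its start-site region 1, chr9:121641044-121648480, held 708.9 tags in naive T cells of the lymph node and 513.2 in spleen CD4+ cells. Thymus CD4+ cells held 114.5, naive T cells of the lavage 112.4, ILC2s 95.0 and 77.1, and Th2 cells of the lavage 49.2, with no peak in Th2 cells of the lymph node. The first 2 libraries stood above the rest, and their peaks were 7436 and 7135 bp wide against 1260 to 2368 bp elsewhere. The naive T libraries differed more from each other than ILC2s did from the lavage naive T library, so ILC2s and naive T cells did not differ beyond the spread at this region.

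Region 2 of Vipr1, chr9:121668417-121671732, lies near the end of the gene and was called in all 8 libraries. It held 153.8 and 246.2 tags in naive T cells, 187.4 in spleen and 235.9 in thymus CD4+ cells, 94.6 and 97.7 in ILC2s, and 91.0 in Th2 cells of each site. Every ILC2 and Th2 value lay below every value of the other 4 libraries. The next region downstream, chr9:121674083-121683551, is nearer to Sec22c and is not counted; naive T cells of the lymph node were also highest there, at 917.3 tags, against 416.1 and 415.7 in ILC2s.

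**Figure D3:**
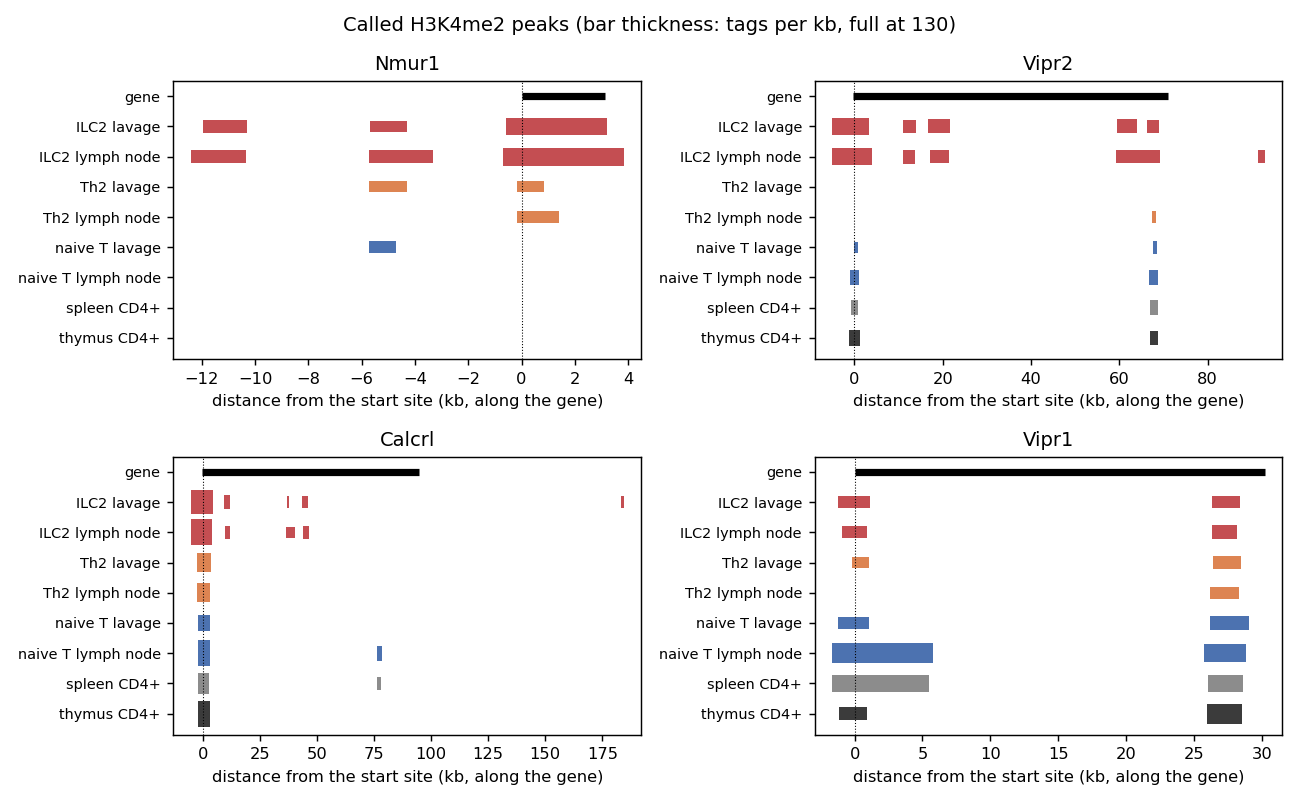
Called H3K4me2 peaks of the counted regions along Nmur1, Vipr2, Calcrl and Vipr1, as distance from the start site in kb in the direction of the gene, 1 row per library; bar thickness gives tags per kb. ILC2 bars at the start site are the widest at Nmur1, Vipr2 and Calcrl, and those of naive T cells of the lymph node at Vipr1, 7436 bp.

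Calcrl (gene ID 54598, chr2:84330626-84425405, minus strand), the receptor subunit shared by calcitonin gene-related peptide and adrenomedullin, carried H3K4me2 at its start site in every library. Region 6, chr2:84420942-84430507, held 1155.3 tags in ILC2s of the lavage and 1170.4 in those of the lymph node. Th2 cells held 519.3 and 467.5, naive T cells 371.6 and 667.9, spleen CD4+ cells 512.8 and thymus CD4+ cells 765.9. Both ILC2 values were above all 6 T cell values, and their mean of 1162.8 ± 10.7 (SD, n = 2) was 1.52 times the highest of them. As at Vipr2, the ILC2 peaks were wider, 9549 and 9167 bp against 4937 to 5733 bp. Tags per kb were 121.0 for ILC2s of the lavage and 127.7 for those of the lymph node. Thymus CD4+ cells (142.9) and naive T cells of the lymph node (128.1) lay above both values. Spleen CD4+ cells (103.9), the Th2 libraries (90.6 and 84.9) and the lavage naive T library (73.3) lay below both.

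Calcrl also had 3 regions inside the gene that were called in ILC2s of both sites and in no T cell library. Region 5, chr2:84413443-84416088, held 148.3 tags for the lavage and 106.4 for the lymph node, and region 3, chr2:84378758-84381577, held 116.3 and 130.1. Region 4, chr2:84384995-84388723, held 42.5 and 138.9, so the lavage value lay close to the minimum. Region 2, chr2:84346766-84348870, was the only one of the 24 called in T cells and not in ILC2s, with 134.5 tags in naive T cells of the lymph node and 97.0 in spleen CD4+ cells. Region 1, chr2:84240862-84242117, lies 88509 bp past the end of the gene and was called only in ILC2s of the lavage, at 60.9 tags.

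The partner gene Ramp1 (gene ID 51801, chr1:91179822-91225196, plus strand) did not set ILC2s apart from T cells as a whole. Its start-site region 1, chr1:91178756-91184596, held 556.8 and 517.7 tags in ILC2s, 190.8 and 179.4 in Th2 cells, and 204.8 in lavage naive T cells. Naive T cells of the lymph node held 850.7, spleen CD4+ cells 681.5 and thymus CD4+ cells 2332.4, all above the ILC2s. The thymus value belongs to 1 peak of 17579 bp that also spans region 2, chr1:91186911-91194450, where ILC2s held 525.5 and 505.9 tags, Th2 cells 200.7 and 207.2, naive T cells 188.5 and 481.0, and spleen CD4+ cells 395.3. ILC2s were above both Th2 libraries and the lavage naive T library in each region. Region 3, chr1:91219565-91220565, was called only in ILC2s of the lavage, at 44.1 tags.

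Ramp3 (gene ID 56089, chr11:6658506-6677478, plus strand), the partner that turns Calcrl into an adrenomedullin receptor, had low values at its start site. Region 1, chr11:6657579-6659871, held 149.1 tags in naive T cells of the lymph node, 89.5 in spleen and 42.5 in thymus CD4+ cells, 55.3 and 66.6 in ILC2s, and no peak in either Th2 library or in lavage naive T cells. Regions 2 and 3, chr11:6678727-6681371 and chr11:6694434-6697256, lie 1249 and 16956 bp beyond the gene and were called in all 8 libraries, at 111.6 to 179.7 and 132.8 to 191.2 tags. ILC2 values lay inside the range of the T cells in both. Region 5, chr11:6704361-6707399, held 54.5 and 102.9 tags in ILC2s and 46.1 to 142.2 in the 5 T cell libraries with a peak, with none in thymus. Region 4, chr11:6701187-6702187, was called only in ILC2s of the lymph node, at 41.6 tags.

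Endothelial cells also use Calcrl with Ramp partners, so markers of endothelium were read beside these genes. Over 6 endothelial markers the summed tags were 1214.2 and 1284.9 in ILC2s and 375.9 to 1618.1 in T cells, with Tek and Tie1 at no peak in any library and Cdh5 at none in ILC2s. Kdr held 220.1 and 273.4 tags in ILC2s, no peak in Th2 cells or lavage naive T cells, and 137.5 to 335.2 in the other T cell libraries. Pecam1 held 896.7 and 922.1 in ILC2s and 330.4 to 938.8 in T cells, and Cldn5 97.4 and 89.4 against at most 88.2. The part of endothelium in the Calcrl values was not tested. Over 6 eosinophil and mast cell markers the sums were 894.6 and 1264.1 in ILC2s and 110.3 to 567.8 in T cells; Siglecf, Epx, Prg2 and Fcer1a had no peak in any library, and the tags came from Ccr3 and Cpa3.

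Against naive T cells, 7 of the 24 regions were called in both ILC2 libraries and neither naive T library (11.6% of all regions), and 0 in both naive T libraries and neither ILC2 library (2.93%). The 7 were 2 of Nmur1, 3 of Calcrl and 2 of Vipr2. Against Th2 cells, 8 were called only in ILC2s (19.5% of all regions), namely 1 of Nmur1, 3 of Calcrl, 1 of Ramp3 and 3 of Vipr2, and 0 only in Th2 cells (1.52%). Between Th2 and naive T cells, the Nmur1 start site was the 1 region called only in Th2 cells (1.1% of all regions). The Vipr2 start site was the 1 called only in naive T cells (5.72%). Both calls include a lavage peak slightly under the minimum, at 38.6 tags in Th2 cells for Nmur1 and 37.6 in naive T cells for Vipr2. Th2 lists hold fewer peaks than the others, 14723 and 14773. When every list was reduced to its 14723 peaks with the most tags, 5 of 20 member regions were ILC2-only against naive T cells (7.66% of all regions) and 5 against Th2 cells (7.84%).

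A test was possible at the 7 member regions called in all 6 airway libraries, 29.2% of the 24 against 41.9% of all regions. Differences are on the scale log2(normalized tags + 1), each library centred on its median over 11669 such regions, with limma and Benjamini-Hochberg adjustment over all 11669. ILC2s were higher than naive T cells at the Calcrl start site, by 1.40 (SE 0.18, adjusted p = 0.02), and lower at Vipr1 region 2, with a difference of -0.83 (SE 0.14, adjusted p = 0.044). Among all regions tested 2.62% were higher and 1.61% lower. The 5 other regions did not pass, and the largest of their differences was 0.95 at Ramp1 region 2 (SE 0.30, adjusted p = 0.17). The median difference was 0.16 over the 7 regions and -0.02 over all.

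The Calcrl call was kept without either naive T library (limma adjusted p = 0.011 and 0.013) and with the site as a block (0.04). It was lost without either Th2 library (0.06) or either ILC2 library (0.18 and 0.19). Without median centring both calls were lost (limma adjusted p = 0.076 for Calcrl and 0.1 for Vipr1 region 2). In tags per kb of peak the Calcrl difference was 0.58 (limma adjusted p = 0.082) and that of Vipr1 region 2 was -0.16 (adjusted p = 0.54), so both differences were smaller per kb of called peak. For Vipr1 region 2 the limma adjusted p was 0.014 without naive T cells of the lavage, 0.051 without those of the lymph node and 0.075 with the site as a block. It was 0.098 without either Th2 library and 0.29 or 0.34 without an ILC2 library.

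ILC2s and Th2 cells differed at none of the 7 regions by limma, where 2.14% of all regions were higher and 1.29% lower in ILC2s. The Calcrl start site came to 0.81 (SE 0.18, adjusted p = 0.083), Ramp1 regions 1 and 2 to 1.10 and 0.90 (adjusted p = 0.27 and 0.17) and Ramp3 region 3 to -0.44 (adjusted p = 0.27). Either naive T library enters this comparison only through the shared estimate of spread. Without it the Calcrl start site and Ramp1 regions 1 and 2 kept differences of 0.81, 1.10 and 0.90. Calls over all regions rose in those fits, so calls at member regions there are not read as particular to these genes. Th2 and naive T cells also differed at none by limma, where 0.111% of all regions were higher and 0.0257% lower in Th2 cells; the largest differences were 0.60 at Ramp3 region 3 (adjusted p = 0.22) and 0.59 at Calcrl (adjusted p = 0.21). The number of the 7 regions with an unadjusted p under 0.05 was 3 for ILC2s against naive T cells, 2 against Th2 cells and 3 for Th2 against naive T cells, beside 2236, 2539 and 2208 of all 11669. The comparisons share libraries and are not independent.

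**Figure D4:**
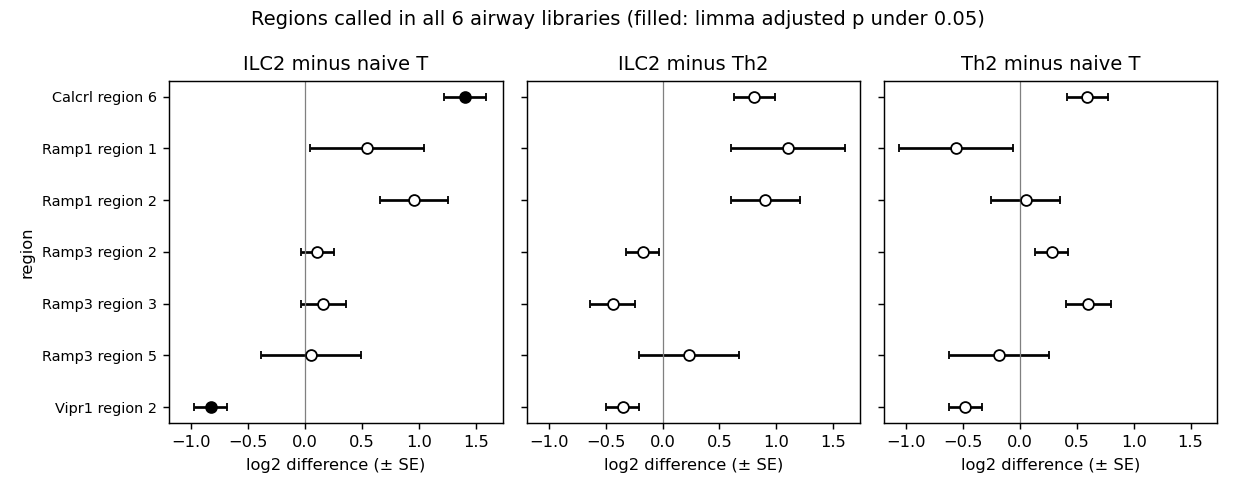
Differences in log2 normalized tags, with limma standard errors as bars, at the 7 member regions called in all 6 airway libraries, for ILC2 minus naive T, ILC2 minus Th2 and Th2 minus naive T. Filled points passed an adjusted p of 0.05: Calcrl region 6 at 1.40 and Vipr1 region 2 at -0.83, both in the first panel.

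The order of the genes by tags summed over their regions differed between cell types. In ILC2s the means were 1542.8 ± 102.2 for Vipr2, 1534.6 ± 15.9 for Calcrl, 1075.0 ± 72.7 for Ramp1, 504.8 ± 119.9 for Nmur1, 465.0 ± 101.0 for Ramp3 and 182.2 ± 10.5 for Vipr1 (SD, n = 2 each); Vipr2 and Calcrl, and Nmur1 and Ramp3, did not differ beyond that spread. In naive T cells they were 862.5 ± 663.5 for Ramp1, 610.6 ± 487.1 for Vipr1, 587.0 ± 304.6 for Calcrl, 487.2 ± 244.0 for Ramp3, 176.1 ± 128.6 for Vipr2 and 20.7 ± 29.3 for Nmur1, and the values of neighbours in that order overlapped down to Ramp3. Th2 cells held 493.4 ± 36.6 at Calcrl, 389.0 ± 3.5 at Ramp1, 331.4 ± 57.8 at Ramp3, 115.6 ± 34.8 at Vipr1, 85.4 ± 12.3 at Nmur1 and 21.0 ± 29.8 at Vipr2, where of the neighbours only the values of Vipr1 and Nmur1 overlapped. These sums are not scaled by gene length, and gene lengths run from 3120 bp for Nmur1 to 94780 bp for Calcrl, so levels between genes are not compared further.

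Across the 8 libraries, the gene whose summed tags followed each member most closely was named by Pearson's r on log2(tags + 40) over 9786 genes that reach 200 tags in a library. It was Fabp12 for Nmur1 (r = 0.997), 1110059E24Rik for Calcrl (0.996), Syk for Ramp1 (0.999), Slc35g1 for Ramp3 (0.965), Actb for Vipr1 (0.994) and Smad3 for Vipr2 (0.991). Fabp12 held 272.2 and 311.0 tags in ILC2s and at most 60.5 in any T cell library. Actb, which encodes beta-actin, held 2534.3 tags in naive T cells of the lymph node and 1238.2 and 1268.8 in ILC2s. Pearson's r takes no account of the size of a change. Smad3 held 2705.0 and 2845.7 tags in ILC2s and 1351.5 to 1968.4 in T cell libraries, where Vipr2 held at most 267.0. Each gene named is the highest of 9786, the points share their libraries and depth, and the r values describe likeness only.

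The genes around the receptors were read from 6 lists, to be set beside shares over all regions of 11.6% ILC2-only and 2.93% naive T-only against each other, and beside 2.62% higher and 1.61% lower in ILC2s by limma. Among the 8 ligand genes of these receptors, 4 had a region and 0 of 6 regions were ILC2-only against naive T cells; Adm, which encodes adrenomedullin, held 380.0 and 322.4 tags in ILC2s, 221.8 in naive T cells of the lymph node and no peak in the other airway libraries. Of 8 related receptors and partners, 3 had a region. Ramp2, the third partner of Calcrl, was called in ILC2s only among the airway libraries, at 73.0 and 65.3 tags, and Sctr, the secretin receptor, in naive T cells only, at 76.9 and 166.2. Of 33 other neuropeptide and transmitter receptor genes, 15 had 36 regions, of which 5 (13.9%) were ILC2-only and 3 (8.33%) naive T-only, the first share near the 11.6% of all regions. The 5 lay nearest to Chrna9, Htr2a, Oprd1, Oprm1 and P2rx7, receptors for acetylcholine, serotonin, opioids and extracellular ATP. Of the 3 naive T-only regions, 2 also lay nearest to Oprm1 and 1 to Chrm3, another acetylcholine receptor gene. Of the 11 regions of this list that were tested, 1 at P2rx7 was higher in ILC2s against naive T cells and 1 at Oprm1 was lower, by limma at an adjusted p under 0.05.

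Signalling genes downstream of the receptors had regions throughout. All 26 genes of Gs and cyclic AMP signalling had 130 regions, of which 25 (19.2%, against 11.6% of all regions) were ILC2-only and 6 (4.62%, against 2.93%) naive T-only. Of the 25, 7 lay at Pde7b, 6 at Pde4b, 6 at Pde7a, 2 at Pde3b and 1 each at Pde4d, Gnai3, Creb1 and Rapgef4. Most thus lay at genes of phosphodiesterases (Pde), and Gnas, Prkaca and Prkacb had 0. By limma 3 of its 43 tested regions were higher in ILC2s (2.62% of all), at Crtc3, Gnai3 and Pde7a. All 21 genes of Gq and calcium signalling had 122 regions, of which 40 (32.8%, against 11.6%) were ILC2-only and 5 (4.1%, against 2.93%) naive T-only. Of the 40, 11 lay at Itpr1, 9 at Plcb4, 5 at Gnaq and 5 at Ppp3ca, and several genes, such as Plcb3 and Prkcd, had 0. Against Th2 cells 37 regions of this list (30.3%, against 19.5% of all) were ILC2-only and 7 (5.74%, against 1.52%) Th2-only. In that list 7 of 33 tested regions were higher in ILC2s (2.62% of all), for example at Itpr1 and Itpr2, and 2 were lower (1.61% of all), for example at Prkcq. The 13 genes of receptor desensitisation had 43 regions, of which 5 (11.6%, the share over all regions) were ILC2-only and 0 naive T-only, and 1 of 21 tested regions was lower in ILC2s, at Rgs10. The median log2 difference from naive T cells was 0.23 for the Gs list, 0.32 for the Gq list, -0.44 for the desensitisation list and -0.02 over all 11669 regions.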

How the data were processed

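H3K4me2 chromatin immunoprecipitation libraries, made with a Nextera protocol per the labels' protocols, were analysed from the authors' peak lists. Per the submitters' processing notes, Bowtie, HOMER and mm10 were used, with no versions. Per the file headers, peaks were called per library with HOMER findPeaks (peak size 1000 bp, minimum distance 2500 bp, stitched into variable lengths, false discovery rate 0.001, 4-fold over IgG). The signal in the deposited lists is a normalized tag count per 10000000 tags, and the deposited ratio is the fold over IgG, which was not tested. Raw depth per peak and intervals of counting error were not derived from these values.

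The members and lists were chosen with earlier results of these data known. Peaks of the 6 airway libraries were merged within 500 bp and given to the nearest RefSeq protein-coding gene (GRCm38.p6) within 100 kb; 106 of the 112 member peaks lie in the 24 member regions and 6 in 2 border regions nearer to another gene. Spleen and thymus peaks were counted, with all their tags, in every region that they overlap. For sums over a gene, each peak was given once, to the region of largest overlap. Every member region is named, and for likeness the 3 closest genes were ranked and the first is given. Regions called in all 6 airway libraries were tested on log2(normalized tags + 1), median-centred, with limma 3.58.1 (R 4.3.3) and Benjamini-Hochberg adjustment; a call is an adjusted p under 0.05. Library medians on the log2 scale ran from 7.26 (Th2, lavage) to 8.12 (naive T, lymph node) before centring. The scripts were tested on simulated data. Python 3.11.15 with pandas 2.3.3 was used for the rest. Alternatives changed the merging distance, gene window, tag minimum, number of peaks per list, pseudocount, centring, tags per kb, site block and each library. With 2 libraries a cell type, an exact permutation test was not used.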

Additional observations from a re-analysis of the deposited data

Results flagged for a closer look

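At 6 comparisons of member regions the difference between cell types had one sign in the lavage and the other in the lymph node; with 1 library per cell type and site, this difference between sites was not tested. At the Ramp1 start site (region 1), ILC2 minus naive T was 1.42 for the lavage and -0.34 for the lymph node on the centred log2 scale, a change of -1.76. At the same region, Th2 minus naive T was 0.30 and -1.43, a change of -1.73. At Ramp1 region 2, Th2 minus naive T was 0.50 and -0.40, a change of -0.89. At Ramp3 region 5, ILC2 minus naive T was 0.19 and -0.09 (change -0.28), ILC2 minus Th2 was -0.18 and 0.65 (change 0.83), and Th2 minus naive T was 0.37 and -0.73 (change -1.11). Among the airway libraries, naive T cells of the lymph node held the highest value at Ramp1 region 1 and at Ramp3 region 5.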

How the results depend on the processing

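Each airway library was left out in turn, which can only raise counts of ILC2-only regions. The count was then 7 to 9 against naive T cells, where the share over all regions ran from 11.6% to 18.1%. Against Th2 cells it was 8 to 10, where that share ran from 19.5% to 23.8%. Against every T cell library it was 6 to 8, and the share over all regions was not computed for these settings. This last count stayed at 6 without the spleen or the thymus library, 2 alternatives chosen after seeing the data. Naive T-only regions against ILC2s were 1 with every gene within 50 kb and 0 to 1 with a library left out, where the share over all regions ran from 2.93% to 17.9%. With equal numbers of peaks, 5 of 20 member regions were ILC2-only against Th2 cells (7.84% of all regions). Against every T cell library 4 of the 20 were, and the share over all regions was not computed under that setting. Between Th2 and naive T cells, Th2-only regions were 0 with peaks covering at least 50% of the region (1.39% of all regions). They were also 0 from 80 tags (0.842%). Naive T-only regions were 2 with every gene within 50 kb (5.72%), 0 with 50% cover (7.48%) and 0 with equal numbers of peaks (2.6%). With a library left out they were 1 to 3, where the share over all regions ran from 5.72% to 27.8%.

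At the 7 tested regions, the limma count for ILC2s against naive T cells was 0 higher and 0 lower without centring, and 0 and 0 in tags per kb. It was 0 to 3 higher and 0 to 1 lower with a library left out, where the lone library of that cell type is assumed to vary like the other groups. Calls for ILC2s against Th2 cells and for Th2 against naive T cells also depended on the library left out. This held at the 7 regions and over all regions. Replicate numbers in the labels follow the site, and the main fit took them to mark the site and used no block. Deviations of same-numbered libraries correlated at 0.11, -0.01 and 0.26. These values cannot tell site from a shared animal or batch, because number and site coincide in every cell type. With the replicate block 0 member regions were lower in ILC2s than in naive T cells. The block gives no separate value for calls by presence. Over all regions, limma calls (higher and lower) were 306 and 188, 250 and 150, and 13 and 3 for ILC2 against naive T, ILC2 against Th2 and Th2 against naive T. They were 235 and 211, 738 and 106, and 39 and 741 without centring, 53 and 20, 0 and 4, and 0 and 0 in tags per kb, and 263 and 171, 112 and 95, and 0 and 0 with the block. Leaving out 1 naive T library gave up to 1302 and 646 for ILC2 against naive T and 1611 and 1145 for Th2 against naive T, whereas leaving out an ILC2 library gave 0 in all comparisons; the cause was not tested.

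Signs turned at differences that had not passed the test. Without centring they became -0.016 at Calcrl region 6, -0.56 at Ramp1 region 2, -0.33 at Ramp3 region 2 and -0.0103 at Ramp3 region 3 for Th2 minus naive T; -0.0755 at Ramp3 region 2, -0.0201 at Ramp3 region 3 and -0.13 at Ramp3 region 5 for ILC2 minus naive T; and 0.25 at Ramp3 region 2 and 0.0784 at Vipr1 region 2 for ILC2 minus Th2. With quantile normalization they were -0.0556 at Ramp1 region 2 and 0.0216 at Ramp3 region 5 for Th2 minus naive T, and -0.0179 at Ramp3 region 5 for ILC2 minus Th2. In tags per kb Ramp3 region 5 gave 0.27 for Th2 minus naive T. With a library left out, ILC2 minus naive T ran from -0.26 to 1.34 at Ramp1 region 1 and from -0.51 to 0.61 at Ramp3 region 5. Th2 minus naive T ran from -1.36 to 0.24 at Ramp1 region 1, from -0.40 to 0.50 at Ramp1 region 2 and from -0.74 to 0.38 at Ramp3 region 5, where ILC2 minus Th2 ran from -0.19 to 0.65. With 2 libraries a cell type, small differences cannot be told from site and animal.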
